A study of Homo sapiens with 24 samples.

Results

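Untreated neratinib-resistant OVCAR8 cells were compared with untreated parental OVCAR8 cells, using 6 of the 24 libraries of the series, chosen by their labels: 3 of the resistant line (OVCAR8NR) and 3 of the parental line. OVCAR8 is an ovarian carcinoma cell line, and neratinib is an irreversible inhibitor of the receptor tyrosine kinases EGFR, ERBB2 and ERBB4. The resistant cells had been kept without drug for 1 week before seeding, and both states were grown in triplicate dishes without neratinib and harvested 24 h after the treatment arm had received it. The other libraries used here for comparison are OVCAR8 resistant and parental cells given 1 µM neratinib for 24 h, and untreated resistant and parental cells of 5637, a bladder carcinoma line. How the resistant line was selected, and whether it is a pool or a clone, is not given in the sources used here. The labels describe triplicate dishes and name no separate cultures, so p-values measure the spread between dishes, which may be technical. In such bulk RNA, fewer cells of a kind and less RNA per cell cannot be told apart.

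EGFR, ERBB2 and ERBB3 pass growth signals to the RAS, RAF and ERK kinase cascade and to PI3K and AKT. ERK activity is read out in transcription as immediate early genes such as EGR1 and FOSL1 and as feedback genes such as the SPRY and DUSP families. Cells selected in a kinase inhibitor can differ from their parent in receptors, in these outputs, in cell identity genes, and in chromosome copies carried by the selected cells.

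The 6 libraries held 42.9, 23.8 and 39.0 M counts in resistant replicates 1 to 3 and 41.7, 34.5 and 40.9 M in parental replicates 1 to 3. Parental replicate 2 stood apart: its counts fell less often in genes longer than 8 kb, with a share of 14.1%, where the remaining 11 OVCAR8 libraries had 20.4% to 21.2%. For genes shorter than 1 kb the share was 5.82%, where the remaining libraries had 4.06% to 4.74%. With it, the median log2 fold change of resistant over parental ran from -0.24 for 549 genes under 1 kb to 0.15 for 2470 genes over 8 kb, over genes of at least 1 CPM, the counts of a gene scaled to a common library total. Without it, the medians of these bins were -0.04 and 0.00. The genes of at least 10 CPM that it moved most were C4orf48, CCDC85B, CFD, HES4 and DUSP23, with listed lengths from 571 to 1235 bases. HES4, for example, stood at 31.2, 19.6 and 19.9 CPM in the resistant libraries, at 29.7 and 26.3 CPM in parental replicates 1 and 3, and at 66.9 CPM in parental replicate 2. Most counts below, and the fold changes of some genes that it moved, are therefore given with and without that library.

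**Figure D1:**
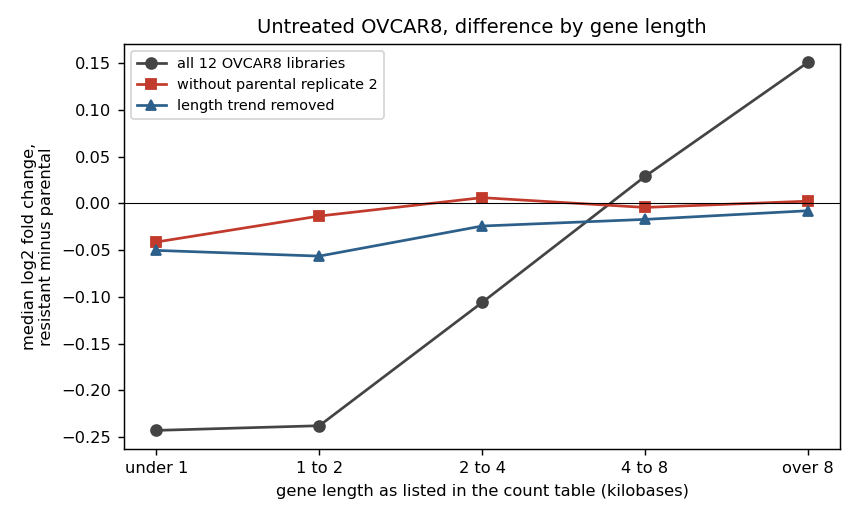
Median log2 fold change, resistant minus parental OVCAR8 without drug, of genes in 5 bins of gene length in kilobases, for the fit with all 12 OVCAR8 libraries (circles), without parental replicate 2 (squares) and with a length trend removed from each library (triangles). The circles rise from -0.24 to 0.15 with length, and the squares stay between -0.04 and 0.01.

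Markers were checked first. PAX8, a transcription factor of the Mullerian lineage, and MSLN, a surface antigen of ovarian carcinoma, were present at means of 145 and 313 CPM in parental cells, while SOX17, EMX2, MECOM and MUC16 were at most 0.03 CPM in both states, so only some of the ovarian markers were found. The mesenchymal gene VIM stood at 996 CPM in parental cells and the epithelial cadherin CDH1 at 0.65 CPM. CDH1 does not stand for the 5 epithelial markers, which also hold EPCAM, KRT8, KRT18 and KRT19. Their summed level was 3169 to 5029 CPM in parental and 2145 to 2293 CPM in resistant libraries. PTPRC and CD3E, which define leukocytes, had 0 counts in all 6 libraries. Of 10 urothelial markers, KRT5, KRT13, TP63, DSG3 and 4 uroplakins were each below 1 CPM in both states, while GATA3 and PPARG, which other epithelia also express, were at 11.6 and 9.95 CPM in parental cells. The summed level of the urothelial list was 21.6 to 22.9 CPM in parental and 25.8 to 28.9 CPM in resistant libraries.

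Resistant cells without drug differed from parental cells in 1779 of 18072 genes tested with edgeR's quasi-likelihood test at an adjusted p under 0.05, which is 9.84% of the genes. Of these, 892 genes (4.94%) were higher and 887 (4.91%) lower in resistant cells, and 226 and 271 of them differed at least 2-fold. Without parental replicate 2, 2118 of 18537 genes were higher and 2107 lower, or 22.8% in all, while the counts of at least 2-fold were 260 and 276. The 2 fits shared 881 higher and 861 lower genes, none with opposite sign, and 37 genes were called only with that library. The typical spread between replicates, as edgeR's biological coefficient of variation, was 13% with it and 4.37% without it. Leaving out resistant replicate 1, 2 or 3 instead gave 546, 511 and 503 higher and 576, 496 and 490 lower genes, and leaving out parental replicate 1 gave 1446 lower. Values of all 3 resistant libraries lay on one side of all 3 parental ones in 28.6% of the genes, and on one side of parental replicates 1 and 3 in 45.7%. Genes named as the largest changes passed in both fits, did not overlap between states and reached 10 CPM in the higher state.

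GREM1, a secreted antagonist of bone morphogenetic proteins (ENSG00000166923.6, hg19 chr15:33010175-33026870), had the largest rise. It stood at 60.3, 54.0 and 58.3 CPM in the resistant libraries and at 3.60, 2.32 and 2.96 CPM in the parental libraries (log2 fold change 4.24, SE 0.13, edgeR adjusted p = 4.19e-09). The states were far apart in every library, and the log2 value without parental replicate 2 was 4.13. Of 5 tested genes within 200 kb of GREM1 on chromosome 15, SCG5 and FMN1 rose and 3 were not called. SCG5, which encodes the neuroendocrine chaperone 7B2, was at 12.9, 11.4 and 12.2 CPM in resistant and 0.91, 1.42 and 0.73 CPM in parental cells (log2 3.54, edgeR adjusted p = 6.2e-07). FMN1, which encodes the actin nucleator formin 1, rose by log2 1.67 (edgeR adjusted p = 1.46e-05).

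Several of the other large rises were genes of secreted proteins. IL1A, the alarmin interleukin 1 alpha (ENSG00000115008.5, hg19 chr2:113531492-113542167), gave 14.2, 16.1 and 15.3 CPM in resistant and 1.10, 1.13 and 1.66 CPM in parental libraries (log2 3.50, SE 0.18, edgeR adjusted p = 2.74e-07). IL1B, the main secreted interleukin 1 and the 1 gene called of 9 tested within 200 kb of IL1A, gave 19.5, 21.9 and 21.6 CPM in resistant against 2.91, 3.74 and 3.62 CPM in parental libraries (log2 2.57, SE 0.13, edgeR adjusted p = 2.17e-07). Neither gene overlapped between the states, and parental replicate 2 lay within or close to the other parental values. FGF5, a fibroblast growth factor (hg19 chr4:81187753-81257834), reached 126, 126 and 128 CPM in resistant cells, against 40.9, 21.7 and 34.2 CPM in parental cells (log2 1.94, edgeR adjusted p = 4.35e-06). Its lowest parental value was that of replicate 2, and the log2 value without it was 1.76. Both tested genes within 200 kb of FGF5, ANTXR2, an anthrax toxin receptor, and PRDM8, rose too, by log2 1.22 and 0.92 (edgeR adjusted p = 1.25e-05 and 0.00605). CTGF, a matricellular protein and widely used target of the YAP and TEAD factors (hg19 chr6:132269316-132272513), stood at 237, 238 and 241 CPM in resistant and 77.7, 72.2 and 75.7 CPM in parental libraries (log2 1.62, SE 0.07, edgeR adjusted p = 5.17e-08). STC2, a secreted glycoprotein induced in the integrated stress response, stood at 191, 174 and 179 CPM against 52.0, 52.6 and 55.5 CPM (log2 1.72, edgeR adjusted p = 3.68e-08).

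The rest of the 15 largest rises were of several kinds. NRP2, a coreceptor for semaphorins and vascular growth factors, rose by log2 2.03, and CD74, the invariant chain of class II antigen presentation, by 1.90 (edgeR adjusted p = 3.3e-06 and 1.42e-05). TMEM200A, a membrane protein gene, rose by log2 1.86, and SAMD3 beside it by 1.64 (edgeR adjusted p = 8.57e-06 and 5.84e-06). VCAN, the matrix proteoglycan versican, had 55.6, 58.2 and 57.4 CPM in resistant and 21.3, 7.65 and 21.5 CPM in parental libraries. All resistant values were higher, but the low value of parental replicate 2 raised the log2 fold change, which was 1.74 with it and 1.42 without it (edgeR adjusted p = 0.00105 and 4.79e-12). AFF3, a component of transcription elongation complexes, and NAV3, a microtubule-binding protein, were also lowest in parental replicate 2, at log2 2.22 and 1.89 with that library and 1.96 and 1.56 without it. PSG7, a pregnancy-specific glycoprotein, rose by log2 3.97 together with PSG1, PSG2, PSG11 and PSG10P. The PSG genes are near-identical copies, so which of them the reads came from is uncertain.

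**Figure D2:**
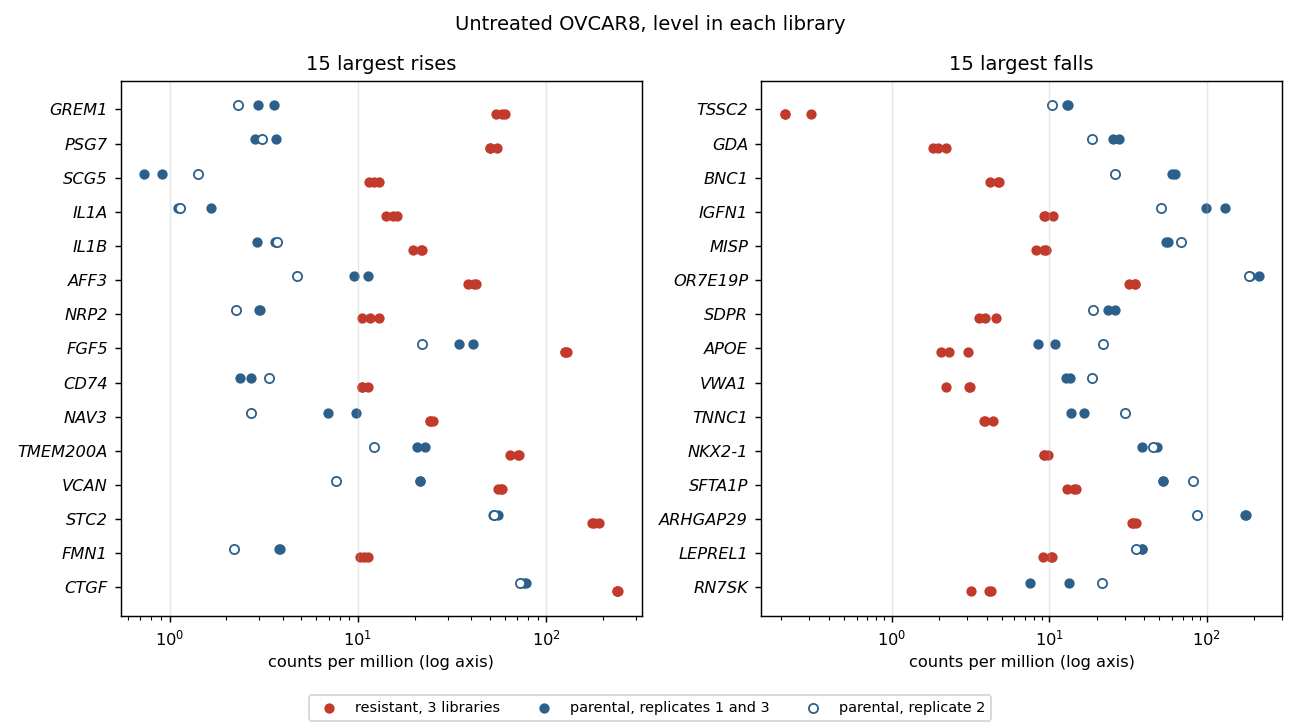
Level in CPM on a log axis of the 15 largest rises (left) and the 15 largest falls (right), 1 point per untreated OVCAR8 library: resistant (red), parental replicates 1 and 3 (filled blue) and parental replicate 2 (open blue). Resistant and parental points do not overlap for any of these genes, which was a condition for naming them, and the open points of VCAN, NAV3 and BNC1 lie left of the filled blue ones.

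The largest falls included transcription factors of epithelia. BNC1, a zinc finger factor of stratified epithelia (hg19 chr15:83924655-83953466), went down to 4.76, 4.82 and 4.18 CPM from 62.3, 26.2 and 60.5 CPM (log2 -3.46, SE 0.24, edgeR adjusted p = 3.21e-06). Its lowest parental value was that of replicate 2, and the log2 value without it was -3.75. NKX2-1, a transcription factor known from thyroid and lung (hg19 chr14:36985602-36990354), was at 9.86, 9.31 and 9.31 CPM in resistant and 48.3, 45.5 and 38.7 CPM in parental libraries (log2 -2.27, SE 0.11, edgeR adjusted p = 1.95e-07). All parental values of both genes were higher than all resistant ones. Of 7 tested genes within 200 kb of NKX2-1 on chromosome 14, 3 fell as well and 4, PAX9 and SFTA3 among them, were not called. MBIP had a log2 fold change of -1.45, NKX2-8 of -1.61 and the antisense gene NKX2-1-AS1 of -2.99 (edgeR adjusted p = 9.06e-08, 0.000675 and 0.000803). Whether counting used strand is not given in the sources used here, so reads of NKX2-1 and its antisense gene cannot be told apart. MISP, a regulator of the mitotic spindle and cell cortex, and SFTA1P, a transcript named as a surfactant-associated pseudogene, fell as well (log2 -2.78 and -2.21, edgeR adjusted p = 1.2e-07 and 1.22e-05).

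TSSC2, a pseudogene on chromosome 11 (hg19 chr11:3402191-3430208), had the largest fall, with 0.21, 0.21 and 0.31 CPM in resistant and 13.01, 10.47 and 13.10 CPM in parental libraries (log2 -5.66, edgeR adjusted p = 4.19e-09). Of 3 tested genes within 200 kb, the pseudogenes OR7E12P and FAM86GP fell with it and ZNF195 was not called. On chromosome 19 the olfactory receptor pseudogene OR7E19P fell, as did 4 of 8 tested genes within 200 kb of it, among them the zinc finger gene ZNF699 (log2 -2.56 and -1.65, edgeR adjusted p = 4.19e-09 and 2e-04). As copies of other genes, the pseudogenes share sequence with their relatives and their values are uncertain. GDA, the enzyme guanine deaminase, fell from 27.7, 18.6 and 25.4 CPM to 1.84, 1.97 and 2.21 CPM (log2 -3.61, edgeR adjusted p = 3.05e-08). IGFN1, an immunoglobulin-like protein known from muscle, and TNNT2, the cardiac troponin T gene within 200 kb of it, both fell (log2 -3.29 and -3.63, edgeR adjusted p = 6.07e-06 and 1.57e-05). The log2 values of the 2 genes without parental replicate 2 were -3.57 and -3.20. PKP1, a desmosome gene between IGFN1 and TNNT2, was not called (log2 0.03, edgeR adjusted p = 0.898). ARHGAP29, a GTPase-activating protein, had 35.3, 33.3 and 34.0 CPM in resistant and 176, 86.6 and 174 CPM in parental libraries (log2 -2.12, edgeR adjusted p = 1.47e-05). Its log2 value without parental replicate 2 was -2.35. APOE, the lipid carrier apolipoprotein E, and TNNC1, a troponin C, were highest in parental replicate 2, and their log2 values of -2.53 and -2.38 were -1.95 and -1.91 without it. SDPR, a caveolar protein gene, and LEPREL1, a collagen prolyl hydroxylase gene, fell too (log2 -2.55 and -1.96, edgeR adjusted p = 1.05e-07 and 2.06e-08). LAMP5, a lysosomal membrane protein gene, was the only gene with a gene symbol of at least 1 CPM in every library of one state and at most 3 counts in each library of the other. It had 6.22, 4.26 and 5.34 CPM in parental libraries and 4 counts in all 3 resistant libraries together.

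Of the ERBB receptor genes, EGFR was not called and ERBB2 and ERBB3 were lower in resistant cells. Neratinib inhibits EGFR and ERBB2, while ERBB3 signals mainly as a partner of the other receptors. The counts of gene lists from here on stand beside 4.94% higher and 4.91% lower of all genes tested, and beside 11.4% each without parental replicate 2. EGFR stood at 327, 336 and 331 CPM in resistant cells and at 324, 119 and 302 CPM in parental cells, where the value of 119 CPM is that of replicate 2 (log2 0.39, SE 0.23, edgeR adjusted p = 0.295). Without that library the log2 value was 0.08 (SE 0.04, edgeR adjusted p = 0.164). ERBB3 was at 100.4, 104 and 95.8 CPM in resistant and 145, 119 and 161 CPM in parental libraries (log2 -0.54, SE 0.08, edgeR adjusted p = 0.00103), and ERBB2 at 118, 115 and 113 CPM against 135, 125 and 138 CPM (log2 -0.25, SE 0.06, edgeR adjusted p = 0.0232). Both groups were separate for these receptors, and without parental replicate 2 the log2 values were -0.61 and -0.24. Per kilobase of gene, EGFR stood at 25.5 CPM in resistant cells, ERBB3 at 11.6 and ERBB2 at 11.2. ERRFI1, an inhibitor of EGFR family kinases, rose from 96.5, 70.5 and 101 CPM to 149.6, 149.8 and 160 CPM (log2 0.74, edgeR adjusted p = 0.000314), and LRIG1, a receptor-degrading membrane protein, rose by 0.65 (edgeR adjusted p = 0.00669). Of 15 tested genes of this list, 2 rose and 2 fell. Among 7 tested ERBB ligands 1 was higher, and without parental replicate 2, 2 were higher and 1 lower. EPGN, epigen, had 37 counts in the 3 resistant libraries together and 0 in the parental ones, a level of 0.26 to 0.44 CPM. It was named after its values were seen. HBEGF, the heparin-binding ligand, was at log2 0.24 (edgeR adjusted p = 0.155), and at 0.36 without parental replicate 2 (edgeR adjusted p = 0.000253).

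Of 24 tested genes of ERK output, 15 were higher and 2 lower in resistant cells (median log2 0.56, against -0.01 for all genes tested), beside the 4.94% of all genes called higher. Without parental replicate 2 the counts were 15 and 3 and the median 0.55. FOSL1, an AP-1 subunit, was the most abundant of those named here at 877, 909 and 858 CPM against 499, 432 and 452 CPM (log2 0.89, edgeR adjusted p = 6.27e-06). PHLDA1, a pleckstrin homology protein, went from 36.3, 31.4 and 33.5 CPM to 86.2, 79.6 and 80.8 CPM (log2 1.24, edgeR adjusted p = 3.55e-07). EGR1, the immediate early zinc finger factor, was at 14.7, 28.2 and 26.4 CPM in resistant and 9.08, 4.87 and 8.05 CPM in parental libraries (log2 1.61, SE 0.24, edgeR adjusted p = 0.00115). Its resistant values were the most spread of these, with replicate 1 lowest, yet they did not overlap the parental ones. Feedback genes rose too, with SPRY2 at log2 0.85, DUSP5 at 0.89 and DUSP6 at 0.82 (edgeR adjusted p = 1.44e-05, 4.7e-05 and 0.00382). The members that fell were EMP1, a membrane protein gene, from 216, 160 and 218 to 87.9, 83.8 and 88.1 CPM (log2 -1.23, edgeR adjusted p = 1.95e-06), and DUSP4, a nuclear ERK phosphatase, from 2.52, 2.12 and 2.23 to 0.56, 0.38 and 0.38 CPM (log2 -2.38, edgeR adjusted p = 0.00102). FOSL1, SPRY2, DUSP6 and DUSP4 lie outside the naming rule and were chosen after their values were seen.

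Of 25 tested inflammatory genes driven by NF-kB, 11 were higher and 2 lower, beside 4.94% and 4.91% of all genes, and 13 and 4 without parental replicate 2 (median log2 0.58 in both fits). Besides IL1A and IL1B, the chemokine gene CCL20 rose from 2.47, 2.84 and 3.04 to 7.04, 9.56 and 7.92 CPM (log2 1.5, edgeR adjusted p = 0.000148). The others that rose, all given here to complete the list, were CXCL1, CXCL2, CXCL5, IL6, ICAM1, BIRC3, NFKBIZ and NFKB2. LIF, a cytokine of the interleukin 6 family, and TNFAIP2 fell (log2 -0.55 and -0.43, edgeR adjusted p = 0.00493 and 0.00266). Of 34 interferon-stimulated genes, 1 rose and 2 fell, and without parental replicate 2 the counts were 3 and 11.

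Promoters of 3 genes that rose are shown as examples, each with matches to the motif of a factor its gene is known to respond to: EGR1 for SRF, CTGF for TEAD, and CCL20 for NF-kB. Each is the 250 bases before the RefSeq transcription start in GRCh38.p14, 5′ to 3′ on the gene's strand, with the motif in capitals on either strand: the CArG box of SRF in EGR1 (chr5:138465229-138465478, plus strand), GGAATG of TEAD in CTGF (chr6:131951373-131951622, minus strand) and the kappaB consensus in CCL20 (chr2:227813592-227813841, plus strand).

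EGR1: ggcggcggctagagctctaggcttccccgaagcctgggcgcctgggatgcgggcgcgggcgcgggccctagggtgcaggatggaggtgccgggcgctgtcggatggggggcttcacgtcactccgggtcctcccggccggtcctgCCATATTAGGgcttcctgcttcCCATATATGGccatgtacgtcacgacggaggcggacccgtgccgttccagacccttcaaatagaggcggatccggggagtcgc

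CTGF: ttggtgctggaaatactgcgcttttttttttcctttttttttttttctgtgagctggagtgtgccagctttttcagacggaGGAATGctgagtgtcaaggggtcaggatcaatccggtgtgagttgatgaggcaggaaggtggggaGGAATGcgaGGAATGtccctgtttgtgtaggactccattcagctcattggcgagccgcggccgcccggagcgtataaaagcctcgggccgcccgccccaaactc

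CCL20: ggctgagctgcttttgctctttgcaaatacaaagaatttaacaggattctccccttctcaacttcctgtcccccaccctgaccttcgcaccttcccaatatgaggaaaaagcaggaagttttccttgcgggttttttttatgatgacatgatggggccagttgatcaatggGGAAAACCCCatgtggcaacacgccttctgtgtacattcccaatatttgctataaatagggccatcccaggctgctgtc

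The CArG box was found 2 times in the EGR1 promoter, GGAATG 3 times in that of CTGF, and the kappaB consensus 1 time in that of CCL20. Over 27305 RefSeq promoters of this length, 1.14% held a CArG box, 11.9% GGAATG or its complement and 9.57% a kappaB match. Of the 22 NF-kB genes with a promoter in the table, 13 held a kappaB match, among them 7 of the 11 that rose (IL6, CXCL1, CXCL2, CXCL5, CCL20, NFKBIZ and BIRC3). Of 17 ERK output genes with a promoter, EGR1 alone held a CArG box, and 5 of 15 YAP targets held GGAATG. Such matches describe these windows and are no evidence of binding. Among YAP targets, CTGF was 1 of 4 of 22 genes that were higher, and 2 were lower. The list's median log2 of 0.12 became -0.11 without parental replicate 2, with 5 higher and 10 lower.

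Of 27 tested genes of glycolysis and hypoxia, 14 rose and 1 fell, beside 4.94% and 4.91% of all genes (median log2 0.32, and 0.34 with 20 higher and 1 lower without parental replicate 2). With the length trend removed from each library, the median was 0.17, with 11 higher and 1 lower. HK2, the inducible hexokinase, went from 18.4, 10.7 and 16.4 to 34.1, 34.7 and 36.4 CPM (log2 1.17, edgeR adjusted p = 0.000155). ADM, the vasodilator peptide adrenomedullin, went from 66.3, 59.9 and 48.0 to 142, 120 and 125 CPM (log2 1.11, edgeR adjusted p = 0.000145). ANGPTL4, a secreted inhibitor of lipoprotein lipase, rose by log2 1.41 from a low level (edgeR adjusted p = 0.000551). The glucose transporter SLC2A3 was the member that fell (log2 -0.30, edgeR adjusted p = 0.0372).

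Of 21 tested epithelial genes, 10 were lower and 0 higher (median log2 -0.89, and -0.73 with 11 lower and 0 higher of 22 without parental replicate 2), beside 4.91% of all genes lower. KRT7, a keratin of simple epithelia, was at 457, 421 and 423 CPM in resistant and 1204, 1552 and 1092 CPM in parental libraries (log2 -1.62, edgeR adjusted p = 1.87e-05). The tight junction gene CLDN1 went from 35.4, 25.1 and 35.0 to 10.6, 10.1 and 10.9 CPM (log2 -1.63, edgeR adjusted p = 1.95e-06). SPINT2, a serine protease inhibitor, went from 93.1, 161 and 109 to 54.5, 53.4 and 52.7 CPM (log2 -1.24). All parental values of the 3 genes were above all resistant ones, but SPINT2 and the keratin gene KRT18 were highest in parental replicate 2, and without it their log2 values were -0.92 and -0.66 in place of -1.24 and -0.98. Of 13 keratin genes, 6 were lower and 0 higher, beside the same 4.91% (median log2 -0.98, and -0.66 with 6 lower and 2 higher without that library). KRT14, a basal keratin, had 56 counts in the 3 parental libraries together and 0 in the resistant ones, and placing it at the bound set by 3 counts leaves the median where it is. By unadjusted p, edgeR had 0 higher epithelial genes, 1 higher keratin and 0 higher Mullerian genes, and DESeq2 and limma voom called 0 higher genes in these lists.

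Of 11 tested genes of the Mullerian and ovarian carcinoma lineage, 7 were lower and 0 higher, beside 4.91% of all genes lower (median log2 -0.54). The median was -0.44 without parental replicate 2, with 9 lower and 2 higher of 12, beside 11.4% each of all genes. PAX8 went from 157, 126 and 153 to 75.6, 86.1 and 75.1 CPM (log2 -0.92, SE 0.08, edgeR adjusted p = 1.06e-05). FOLR1, the folate receptor alpha gene, and LHX2, a LIM homeobox gene, fell (log2 -1.06 and -0.54, edgeR adjusted p = 0.00547 and 0.0101). WT1, a zinc finger factor of serous ovarian carcinoma, fell from 4.32, 3.25 and 3.57 CPM (log2 -1.55, edgeR adjusted p = 0.000244). KRT14 and WT1 lie below the level the naming rule asks for and were chosen after their values were seen.

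Of 23 tested mesenchymal genes, 4 were higher and 3 lower, and 7 and 5 without parental replicate 2. SNAI2, a repressor of epithelial genes, rose from 7.54, 6.64 and 8.27 to 16.4, 17.7 and 15.8 CPM (log2 1.11, edgeR adjusted p = 4.57e-05), and the cadherin gene CDH11 rose by 1.41. TGFBI, a matrix protein induced by TGF-beta, fell from 1280, 1118 and 1246 to 394, 425 and 423 CPM (log2 -1.60, edgeR adjusted p = 2.56e-08). Of 26 collagen and matrix genes, 8 rose and 3 fell, and without that library the counts were 13 and 4. The collagen gene COL7A1 was among those that fell (log2 -0.95). Integrins and laminins had 2 higher and 6 lower of 23, and 6 and 8 without it. ITGA6, the laminin receptor subunit alpha 6, rose, and ITGB4, its hemidesmosome partner, fell (log2 0.72 and -1.26, edgeR adjusted p = 0.00355 and 2.52e-05). In the TGF-beta and BMP list 5 of 29 were higher and 5 lower, and 5 and 11 without that library. Beside GREM1, the activin subunits INHBA and INHBB rose by log2 0.90 and 0.76, and TGFB2, the inhibitory SMAD7 and the BMP target ID1 fell, with log2 values of -0.96, -0.89 and -0.96.

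Other receptor tyrosine kinases had 6 higher and 3 lower of 21 tested, and 10 and 4 of 22 without parental replicate 2. FGFR1 was the most abundant one named, at 537, 528 and 515 CPM in resistant and 419, 306 and 395 CPM in parental libraries (log2 0.46, edgeR adjusted p = 0.00283). Its lowest parental value was that of replicate 2, and the fold changes of genes in this paragraph are from the fit that holds that library. MERTK and the insulin receptor INSR rose, and MST1R and FGFR3 fell (log2 0.55, 0.46, -0.68 and -0.46, edgeR adjusted p = 0.00461, 0.011, 0.000316 and 0.0109). In the RAS, RAF and PI3K list, the kinase gene MAP2K1 rose (log2 0.26) and the AKT phosphatase gene PHLPP1 fell (log2 -0.55). The drug efflux pump ABCB1 rose from 4.13, 3.22 and 4.77 to 5.78, 6.04 and 6.18 CPM (log2 0.53, edgeR adjusted p = 0.0132). Its lowest parental value was also that of replicate 2. Of 17 tested ABC transporter genes, 2 were higher and 0 lower (median log2 0.25), and 4 and 1 without parental replicate 2 (median 0.09). Among BCL2 family genes, the survival gene MCL1 rose, and BCL2L1 and the effector BAK1 fell (log2 0.40, -0.34 and -0.36, edgeR adjusted p = 0.00316, 0.00508 and 0.00785).

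In growth lists, DNA replication had 0 higher and 3 lower of 34, mitosis 0 and 2 of 30, and mTORC1 machinery 0 and 1 of 31, beside 4.94% and 4.91% of all genes. These counts were 1 and 8, 4 and 3, and 3 and 6 without parental replicate 2, beside 11.4% each. By unadjusted p, edgeR had 1, 2 and 4 higher and 9, 3 and 8 lower members of these lists. DESeq2 called 0, 1 and 1 higher and 6, 2 and 3 lower, and limma voom 0 of each higher and 3, 2 and 1 lower. The 36 cytosolic ribosomal protein genes gave 0 calls with all libraries by edgeR (median log2 -0.29), but 13 higher and 0 lower without parental replicate 2 (median 0.10), beside 11.4% of all genes higher. Nuclear genes of oxidative phosphorylation likewise went from a median of -0.33 with 0 calls of 29 to 0.00 with 1 higher and 3 lower. By unadjusted p, edgeR had 0 ribosomal protein genes past 0.05, and 0 higher and 7 lower oxidative phosphorylation genes, and DESeq2 and limma voom called 0 genes of either list. Both medians of fold changes thus rest on parental replicate 2. The median listed lengths were 2.99 and 2.57 kb. With the length trend removed from each library, the medians of fold changes were -0.19 and -0.20, with 0 calls in either list. Whether length accounts for the shift was not tested.

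**Figure D3:**
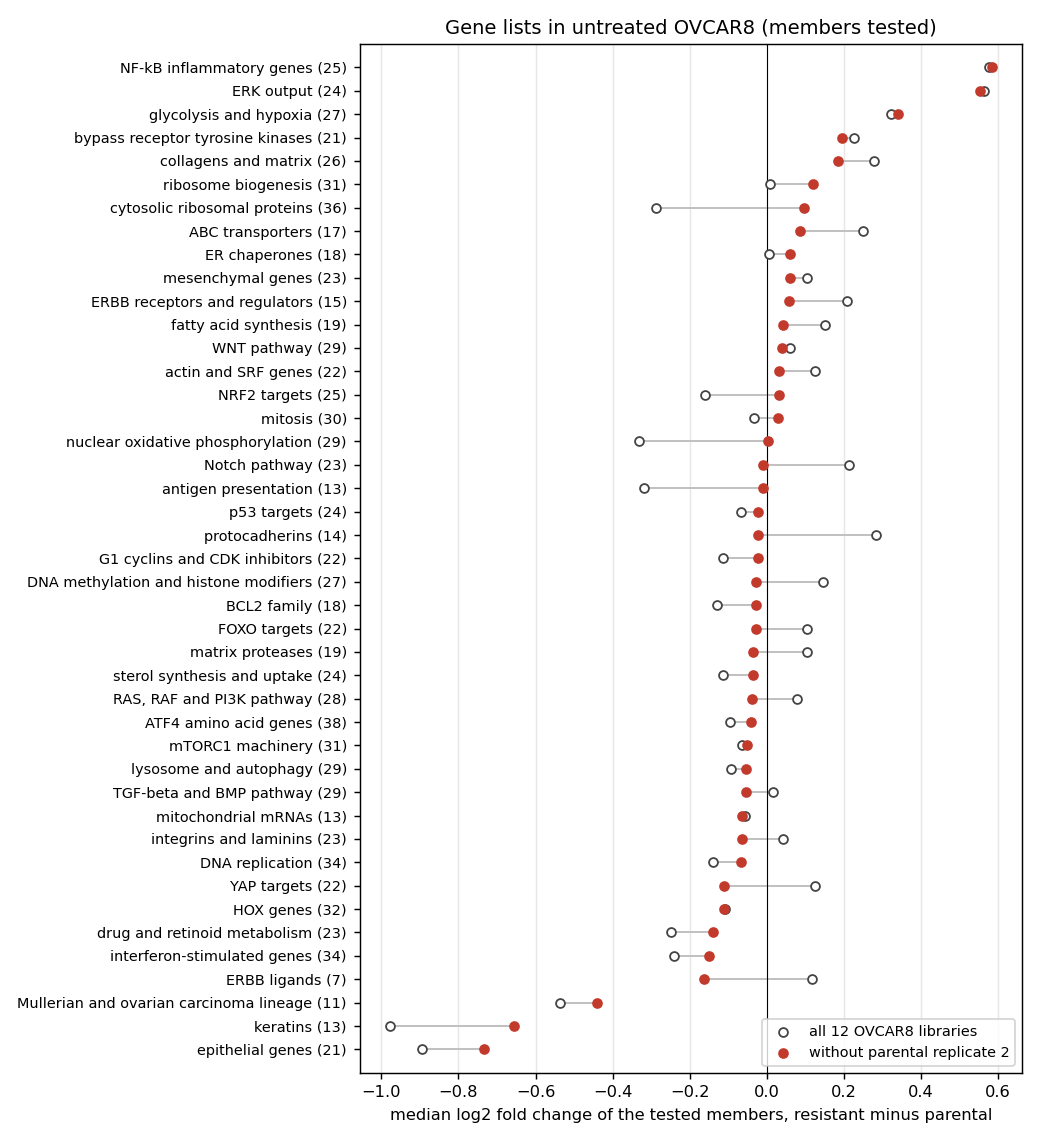
Median log2 fold change, resistant minus parental OVCAR8 without drug, of the tested members of each list (number in brackets), with all 12 OVCAR8 libraries (open circles) and without parental replicate 2 (filled red), ordered by the latter. NF-kB, ERK output and glycolysis genes lie above 0.3 and epithelial, keratin and Mullerian genes below -0.4 in both fits, while ribosomal protein genes move from -0.29 to 0.10.

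Several named genes had neighbours that differed too, and others did not. Near AFF3, BNC1 and GDA, 0 of 4, 5 and 4 tested genes within 200 kb were called. Near CD74, which rose, 2 of 6 were lower and 0 higher. Near MISP and SDPR, which fell, 2 of 20 and 1 of 2 were higher and 0 lower. Of all genes tested, 4.94% were higher and 4.91% lower. The fold changes were also read along the chromosomes. Medians over 25 consecutive tested genes were usually small, with a median absolute value of 0.05 and a 99th percentile of 0.33 in the fit without parental replicate 2. The highest lay on the short arm of chromosome 5 (hg19 chr5:41904290-44820530, from C5orf51 to MRPS30), at 0.86, with 15 genes higher and 0 lower. The block before it (hg19 chr5:36221157-41870621) had a median of 0.52. Over both, 31 of 50 genes were higher and 1 lower (median 0.68), against 11.4% of all genes higher in that fit, and with all libraries 26 of 48 were higher and 0 lower (median 0.80). Both blocks were picked for their large medians in the control libraries, so high shares there follow from the choice. The next 25 genes beyond had a median of -0.07, with 3 higher and 4 lower, and the 25 before had 0.33, with 11 higher and 4 lower.

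Genes of varied function lie in this stretch. MRPS30, a mitochondrial ribosome protein, was at 94.7, 88.1 and 90.8 CPM in resistant and 49.5, 49.3 and 47.3 CPM in parental cells (log2 0.86). ZNF131, a zinc finger gene, was at 89.3, 87.2 and 87.4 against 48.6, 34.3 and 48.1 CPM (log2 0.97), and HMGCS1, an early enzyme of sterol synthesis, at 93.4, 108 and 111 against 51.0, 43.6 and 60.4 CPM (log2 0.97). Resistant values were above all parental ones for the 3 genes. OXCT1, which uses ketone bodies, OSMR, the oncostatin M receptor, and PRKAA1, a catalytic subunit of AMPK, had log2 values of 0.83, 0.94 and 0.92. Without parental replicate 2 these were 0.82, 0.72 and 0.66, and those of MRPS30, ZNF131 and HMGCS1 were 0.92, 0.86 and 0.90. HMGCS1 is named by the rule as the 1 riser of 24 sterol genes, and the other genes of the stretch were chosen after their values were seen. In the neratinib libraries, which are other dishes, the stretch had a median of 0.64 with 25 higher and 3 lower. DNA was not measured, so copy number was not tested.

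Chromosome 10 differed more broadly. With all libraries, 91 of its genes were higher and 40 lower (median 0.15), beside 4.94% and 4.91% of all genes. Chromosome 14 had 13 higher and 55 lower (median -0.10). Without parental replicate 2, chromosome 10 had 208 of 721 genes higher and 59 lower (median 0.12), beside 11.4% each of all genes. Chromosome 14 had 32 higher and 135 lower of 619 in that fit (median -0.09). Around the centromere of chromosome 10 the running median turned negative, to -0.41 from ZNF25 to ZNF32 (hg19 chr10:38238500-44144304), with 0 higher and 13 lower of 25. The lowest of chromosome 14 was -0.33, from BRMS1L to HNRNPUP1, and held NKX2-1 and the forkhead factor gene FOXA1. A block at the end of chromosome 20 (hg19 chr20:62189439-62703700) had a median of -0.43, with 0 higher and 15 lower, and in the keratin cluster of chromosome 12 it was -0.47. Blocks of chromosome 8 (hg19 chr8:6666038-11422113) and chromosome 19 (hg19 chr19:43428286-44405537, with PSG7) had medians of 0.53 and 0.48. The latter 2 were smaller in the neratinib libraries, at 0.19 and 0.15, where those of chromosomes 20 and 12 were -0.66 and -0.40. Neighbouring genes share position and sometimes regulators. These runs were picked by their medians, and no test was made of them.

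**Figure D4:**
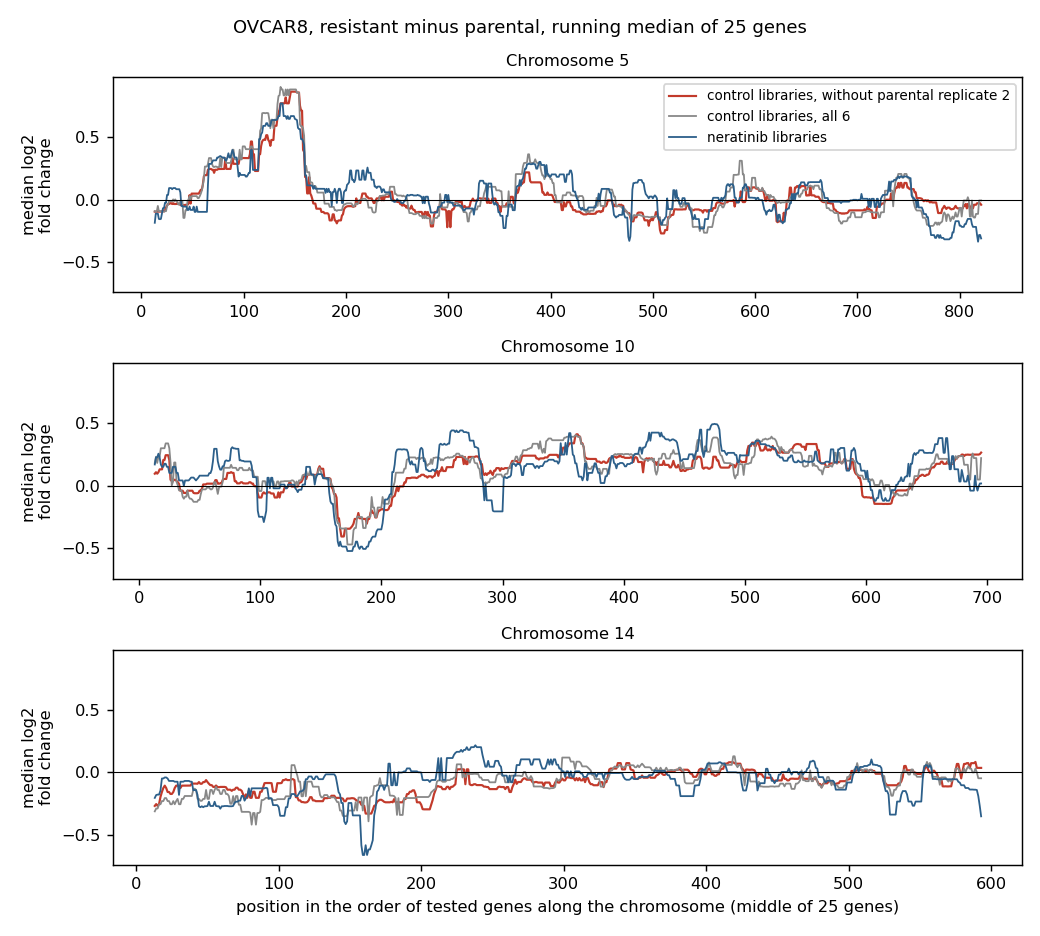
Running median of 25 consecutive tested genes of the log2 fold change, resistant minus parental OVCAR8, along chromosomes 5, 10 and 14 in gene order, for control libraries without parental replicate 2 (red), all 6 control libraries (grey) and the neratinib libraries (blue). On chromosome 5 the 3 lines rise together to a peak of 0.86 in the red line and drop next to it, and on chromosome 10 they dip together to -0.41.

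The neratinib libraries share no dish with the untreated ones and give another reading of both states, under 24 h of drug. There 2638 genes were higher and 2958 lower in resistant cells (31.0% of 18072). Of the 517 genes of at least 10 CPM that were higher without drug by the naming conditions, 357 were also higher with drug, where 14.6% of all genes were. Of the 482 lower genes, 325 were also lower with drug, where 16.4% of all genes were. Of the 999 genes, 38 were called in the opposite direction. Of the 15 largest rises and 15 largest falls, 28 were called in the same direction with drug, and STC2 and RN7SK, the small nuclear RNA 7SK, were not called.

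Whether the contrast of resistant and parental cells differed with drug was tested as the difference of the 2 contrasts, one with and one without neratinib. STC2 was at 222, 215 and 227 CPM in resistant and 211, 208 and 198 CPM in parental cells on neratinib (log2 0.15, edgeR adjusted p = 0.134), and the contrast differed from that without drug (difference -1.57, edgeR adjusted p = 3.86e-05). IL1A and IL1B were still higher in resistant cells on drug, by log2 2.34 and 1.40, but by less than without drug (difference -1.16 for each, edgeR adjusted p = 0.014 and 0.00305). STC2, IL1A and IL1B were named for their large contrast without drug, so the choice itself favours a smaller one with drug. Among NF-kB genes, 12 of 25 had a lower contrast with drug and 0 a higher one (17 and 0 without parental replicate 2), and 5 were higher and 10 lower in resistant cells on drug. ATF4 amino acid genes had 3 higher and 1 lower of 38 without drug, or 6 and 10 of 39 without parental replicate 2, and 1 higher and 34 lower with drug. Of these, 26 had a lower contrast with drug, and 37 without that library. DNA replication and mitosis genes had 0 higher each without drug, or 1 and 4 without parental replicate 2, and 27 each with drug. The contrast was higher with drug in 23 of 34 and 22 of 30 of them, and in 31 and 30 without that library. Of 11 Mullerian genes 0 differed, and of 21 epithelial ones 1 was higher and 1 lower. With parental replicate 2 left out, 4 Mullerian genes were lower, and 5 epithelial genes were higher and 3 lower. Across all genes the contrast was higher with drug in 4.62% and lower in 4.21%, or 8.83% together. Without parental replicate 2 it was higher in 17.0% and lower in 15.7%, or 32.8% together.

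**Figure D5:**
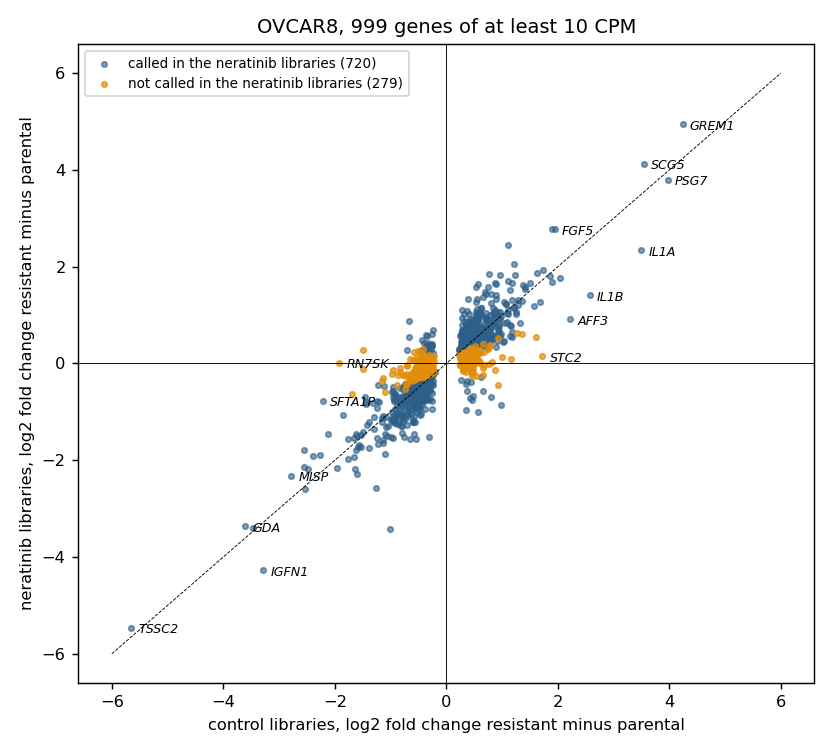
Log2 fold change, resistant minus parental OVCAR8, in the control libraries (x axis) and in the neratinib libraries (y axis) of 999 genes that reach 10 CPM and passed without drug in both fits without overlap, with the line of equal values dashed. Of these, 720 were called in the neratinib libraries (blue) and 279 were not (orange), and STC2 and RN7SK lie near 0 on the y axis.

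The untreated resistant and parental cells of 5637 share no library with this comparison, and 10339 of 18307 genes (56.5%) were called there. Of the 892 genes higher in resistant OVCAR8, 392 were higher and 179 lower in resistant 5637, and of the 887 lower ones, 291 were lower and 260 higher. As shares of the genes tested in both lines, 50.5% of the higher and 37.4% of the lower OVCAR8 calls were repeated in 5637, where 28.4% and 28.0% of all genes were higher and lower. In the other direction, 8.45% and 6.22% of the 5637 calls were repeated in OVCAR8. Of the 26 named rises and falls tested in 5637, 14 were called in the same direction, 9 in the opposite direction and 3 were not called. IL1A, IL1B, AFF3, CD74, NAV3, TMEM200A and STC2 rose in both lines. GREM1, SCG5, NRP2, VCAN and CTGF fell in 5637, and the difference between the lines passed for each, where it passed for 32.9% of all genes (14.8% higher and 18.1% lower). These genes were chosen by their OVCAR8 contrast, which enters the difference. GREM1 had log2 4.24 in OVCAR8 and -3.52 in 5637 (difference 7.74, edgeR adjusted p = 1.77e-16). Its 5637 levels were low, at 0.17 CPM in resistant and 1.94 CPM in parental cells, and those of SCG5 were 0.24 and 0.55 CPM. ERK output was higher in 18 and lower in 3 of 24 genes in 5637, NF-kB genes in 25 and 2 of 29, and glycolysis genes in 19 and 6 of 28. Epithelial genes were lower in 18 and higher in 6 of 28, but Mullerian genes were split at 4 and 4 of 11. EGFR rose in 5637, by log2 0.25 (edgeR adjusted p = 0.000437), and ERBB2 and ERBB3 fell there, with log2 values of -0.79 and -0.86. The lines also differ in tissue of origin, and line and tissue cannot be told apart.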

How the data were processed

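Whole read counts per gene were deposited by the authors for 39786 genes in 24 libraries. The libraries were stranded mRNA (TruSeq) read as pairs, per the labels' protocols, and FastQC, STAR 2.5.3a, featureCounts 1.15.2, DESeq2 1.18.1 and hg19 are named, per the submitters' processing notes. Counts of the 12 OVCAR8 libraries were fitted with edgeR 4.0.16 in R 4.3.3 (filterByExpr, TMM factors, quasi-likelihood F-test, 4 group means, 8 residual degrees of freedom), with Benjamini-Hochberg adjustment over all genes tested. The difference between lines used all 24 libraries. CPM values are over library totals, so their ratios differ from fitted folds by the TMM factors. Named genes were the 15 largest rises and falls by the conditions in the report, up to 3 rising and 3 falling members of a list with at least 5 CPM, the ERBB receptors, genes seen in 1 state and the 5 genes most moved by parental replicate 2, and examples of these are printed. Members, lists, and rules were chosen with earlier results of these data known, and the 52 lists were written from general knowledge and given no test. Counts were simulated from the means, library sizes and dispersion trend of these 12 libraries (17714 genes), with no length bias put in. There, 78.4% of genes changed 2-fold and 35.0% of those changed 1.5-fold were found, with 5 false calls. False calls from the length bias of parental replicate 2 are not covered. Alternatives used limma voom 3.58.1 and DESeq2 1.42.0, other scaling and filters, a length trend and left-out libraries. Replicate numbers were not used as pairs. Some genes are not reported here.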

Additional observations from a re-analysis of the deposited data

Results flagged for a closer look

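Of the 26 largest rises and falls tested in 5637, 20 differed between the lines OVCAR8 and 5637 in the contrast of untreated resistant and parental cells, by edgeR's test of that difference, where 32.9% of all genes did. The genes were chosen by their large OVCAR8 contrast, which enters the difference, so their share cannot be read against that of all genes. Values are the log2 fold change in OVCAR8 minus that in 5637, each with an edgeR adjusted p at or below 0.0282. They were positive for GREM1 at 7.74, SCG5 at 4.74, NRP2 at 3.68, VCAN at 2.96, CTGF at 2.66, FGF5 at 1.86, NKX2-1 at 1.74, FMN1 at 1.68 and IL1A at 1.37. NKX2-1 fell in both lines and by more in 5637, and IL1A rose in both and by more in OVCAR8. They were negative for IGFN1 at -9.76, APOE at -5.18, GDA at -4.59, ARHGAP29 at -3.17, SFTA1P at -2.45, MISP at -2.17, LEPREL1 at -1.82, CD74 at -1.53, STC2 at -1.45, SDPR at -1.09 and TMEM200A at -1.08. CD74, STC2 and TMEM200A rose in both lines and by more in 5637, while IGFN1, APOE, GDA and ARHGAP29 fell in OVCAR8 and rose in 5637. IGFN1 was at 0.08 CPM in parental and 7.47 CPM in resistant 5637, so the size of its difference rests on a level near 0. SCG5, FGF5, SFTA1P and SDPR were below 1 CPM in both states of 5637. TSSC2 and TNNC1, too low for a test within 5637, also passed the test of the difference, at -7.02 and -2.60, which makes 22 of all 30, and 23 without parental replicate 2.

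Between neratinib and control libraries of OVCAR8, 10 of the 30 contrasts differed, with an edgeR adjusted p at or below 0.0389, where 8.83% of all genes did. The 30 genes were chosen by their large control contrast, which the difference subtracts. Their share is therefore affected by the choice and cannot be read against that of all genes. The difference, neratinib minus control, was 1.94 for RN7SK, 1.44 for SFTA1P, 0.825 for FGF5, 0.769 for SDPR, 0.702 for GREM1 and 0.416 for OR7E19P. It was -1.57 for STC2, -1.31 for AFF3, -1.16 for IL1A and -1.16 for IL1B. FGF5 and GREM1 were thus higher in resistant cells by more with drug, and SFTA1P, SDPR and OR7E19P lower by less. RN7SK varied widely in the parental control libraries, at 13.4, 21.6 and 7.51 CPM. It was highest in replicate 2, and its difference was 1.42 without that library. Without parental replicate 2, 18 of the 30 differed, where 32.8% of all genes did: the same 10 and NAV3, VCAN, CTGF, BNC1, IGFN1, MISP, APOE and ARHGAP29.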

How the results depend on the processing

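The OVCAR8 counts without drug, 892 genes higher and 887 lower, were within 1.5 times of these under DESeq2 size factors, library size scaling, no filter, a CPM filter, robust dispersion, limma voom and the DESeq2 test, with no direction reversed. Leaving out 1 control library gave 503 to 2214 higher and 490 to 2172 lower genes, where 2118 and 2107 are without parental replicate 2, and 2214 and 2172 when a length trend was also removed, an alternative chosen after seeing the data. At least 2-fold, these ranges were 177 to 289 and 208 to 332. With the 6 compared libraries alone, 236 genes were higher, 254 lower, and 126 and 165 at least 2-fold, and 75 of 150 named genes lost their call or moved, where the fit has fewer samples. Without parental replicate 2, the difference between drug and control contrasts was higher in 3157 and lower in 2919 genes, in place of 835 and 760, and without 1 neratinib library the contrast with drug gave 1827 to 1972 higher and 2063 to 2306 lower. Same-numbered libraries of the states did not deviate together (correlations -0.188, -0.0443 and 0.212), and a replicate block gave 741 higher and 712 lower genes. A fold of 1.5 was found in 35.0% of simulated cases with all libraries, so small differences are often missed.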
